A study of Saccharomyces cerevisiae with 30 samples.

Results

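The comparison described here is that of a bromodomain mutant of the coactivator subunit Spt7 (Spt7m) with wild type (WT) after 30 min in sucrose medium. It used 6 of the 30 RNA-seq libraries of the series, 3 of each strain, and covered each gene whose FPKM averaged 1 or more across the 18 libraries of the table that holds them, which were 5841 of 6101 genes. The genes just outside this limit were YJL077W-B and YAL065C, with means of 0.9935 and 0.9936 FPKM, and those just inside were HOP2 and YCR085W, with 1.005 and 1.006. FPKM are fragments per kilobase of gene, scaled to the mapped fragments of the library.

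Both strains were BY4741, a haploid laboratory strain of mating type a, labelled as wild type or as Spt7 bromodomain mutant. Cultures of 5 mL grew in rich medium with glucose (YPD) at 28 °C and 300 rpm to an OD600 of 0.7 and were then moved to rich medium (YP) with 2% sucrose. The same table holds these strains in 2% glucose and a Gcn5 bromodomain mutant (Gcn5m) in both media, for 6 groups of 3 libraries. A second table of 12 libraries holds an acetylation mutant of the subunit Ada3 (Ada3-3KR) with its own WT in both media. The labels do not say which residues of Spt7 were changed, how the strain was made, whether it was 1 clone, or whether replicates were separate cultures, so each p-value is set against a spread between libraries that could be technical only.

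SAGA is a large complex that is brought to yeast promoters by activators, acetylates histones through Gcn5, delivers the TATA-binding protein and removes ubiquitin from histone H2B. Spt7 is a scaffold of its core, and Gcn5 carries the acetyltransferase activity. Both contain a bromodomain, a fold that binds acetylated lysines. Genes with a TATA box and genes induced by stress or a change of nutrient are those classically described as SAGA-dependent in budding yeast. Sucrose is split outside the cell by invertase, and yeast leaving glucose for it relieves glucose repression through the kinase Snf1.

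The values of a library summed to between 1181894 and 1234573 FPKM in the 6 libraries, 23 to 28 genes per library were listed at 0, and the lowest correlation of log2 values between libraries of 1 group lay between 0.995 and 0.996. The WT libraries stood apart from both mutants: the highest correlation of a WT sucrose library with a library of any other group was 0.971 to 0.974, while for Spt7m in sucrose it was 0.989 to 0.993. Read depth is unknown, since FPKM are not counts. Every difference below is Spt7m minus WT in sucrose on the scale log2(FPKM + 1), given with its standard error, and rose, fell, higher and lower mean that limma gave a Benjamini-Hochberg adjusted p under 0.05 over the 5841 genes. The scale understates differences of genes near 0. For a single gene, an exact permutation test of 3 libraries against 3 cannot go below 0.1.

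By this test 4108 of 5841 genes (70.3%) differed, 1683 (28.8%) higher and 2425 (41.5%) lower in Spt7m, and for 4246 genes (72.7%) the libraries of the strains did not overlap. Most differences were small: 140 genes (2.4%) were called and at least 2-fold higher and 143 (2.45%) at least 2-fold lower. Since more genes than not passed, the counts for gene groups below are to be read against these shares. The median over all genes tested was -0.08. It moved to -0.01 with either quantile normalization or median rescaling, so differences of a size near 0.1 depend on the scale. Single genes could move further with quantile normalization, GAL2 from -0.35 to -0.14 and GCN4 from 0.19 to 0.35, so some larger differences depend on it too.

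The promoters of 7 genes that stand for groups described below are shown here, because the words that known regulators of those groups bind are short and can be read in them. Each is a stretch of 220 bases of RefSeq's R64 genome, 5′ to 3′ on the gene's strand, from 300 to 81 bases before the start codon. Capitals mark the TATA box and the group's element, as follows: the stress response element AGGGG (reverse complement CCCCT) in HSP12 (chrVI:106956-107175, plus strand), the oleate response half-site CGGNNNTNA in POT1 (chrIX:41525-41744, minus strand), the PAC core GATGAG in BFR2 (chrIV:1059327-1059546, plus strand), the Gcn4 element TGACTC in ADE17 (chrXIII:509361-509580, minus strand), the Pho4 element CACGTG in SPL2 (chrVIII:375181-375400, minus strand), the MCB element ACGCGT in CDC45 (chrXII:346022-346241, minus strand) and the Aft element GCACCC (reverse complement GGGTGC) in FIT2 (chrXV:1059231-1059450, plus strand). Of these, HSP12, POT1 and FIT2 were higher in Spt7m, and BFR2, ADE17, SPL2 and CDC45 were lower.
HSP12: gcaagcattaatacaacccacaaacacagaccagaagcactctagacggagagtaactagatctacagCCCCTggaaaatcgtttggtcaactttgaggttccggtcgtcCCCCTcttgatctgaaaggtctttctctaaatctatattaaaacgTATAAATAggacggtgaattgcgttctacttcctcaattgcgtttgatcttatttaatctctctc
POT1: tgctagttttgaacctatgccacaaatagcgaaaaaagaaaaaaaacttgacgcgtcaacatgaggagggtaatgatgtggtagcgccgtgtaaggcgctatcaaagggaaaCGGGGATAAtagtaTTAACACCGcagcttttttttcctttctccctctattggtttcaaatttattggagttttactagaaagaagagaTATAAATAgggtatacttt
BFR2: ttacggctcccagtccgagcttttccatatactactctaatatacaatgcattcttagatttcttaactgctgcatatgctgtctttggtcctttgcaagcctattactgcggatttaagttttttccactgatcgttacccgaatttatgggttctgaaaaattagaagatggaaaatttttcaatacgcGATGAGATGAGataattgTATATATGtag
ADE17: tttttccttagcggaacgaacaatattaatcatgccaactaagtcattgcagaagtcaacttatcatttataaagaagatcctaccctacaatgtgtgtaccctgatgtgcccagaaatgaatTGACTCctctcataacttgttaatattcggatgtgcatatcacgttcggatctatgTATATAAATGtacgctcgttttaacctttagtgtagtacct
SPL2: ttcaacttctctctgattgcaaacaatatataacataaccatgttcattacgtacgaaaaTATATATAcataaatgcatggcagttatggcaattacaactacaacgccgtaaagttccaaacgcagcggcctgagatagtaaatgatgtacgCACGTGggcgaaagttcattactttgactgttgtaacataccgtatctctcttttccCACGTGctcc
CDC45: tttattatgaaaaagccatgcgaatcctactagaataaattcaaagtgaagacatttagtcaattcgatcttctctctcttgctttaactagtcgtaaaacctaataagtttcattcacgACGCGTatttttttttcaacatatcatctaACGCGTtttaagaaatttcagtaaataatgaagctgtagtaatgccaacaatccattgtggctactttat
FIT2: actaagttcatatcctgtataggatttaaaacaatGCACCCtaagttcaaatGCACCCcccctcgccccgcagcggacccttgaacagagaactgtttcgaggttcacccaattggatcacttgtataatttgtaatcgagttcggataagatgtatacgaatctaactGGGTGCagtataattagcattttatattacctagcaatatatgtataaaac

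SPT7 itself (YBR081C, chromosome II, 401253 to 405251 on the minus strand of R64, protein-coding) was read at 28.3, 25.9 and 27.5 FPKM in WT and at 23.9, 25.6 and 27.2 in Spt7m. The strains overlapped, and the difference was -0.09 ± 0.08 (limma, adjusted p = 0.301). The mutation is one of the protein, so the RNA level does not check the genotype. Of the 4 genes of the acetyltransferase module, 3 were lower in Spt7m. GCN5, the acetyltransferase gene (YGR252W, chromosome VII, 996869 to 998188), had 33.5, 32.5 and 35.2 FPKM in WT and 21.6, 25 and 27.3 in Spt7m (-0.44 ± 0.09). The values did not overlap. ADA2, which encodes the adaptor that activates Gcn5, was lower by a similar amount (-0.54 ± 0.08), and NGG1, which encodes Ada3, by less (-0.26 ± 0.07). SGF29, the module's reader of methylated histone H3, did not pass (-0.10 ± 0.07, adjusted p = 0.219).

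Of the 11 core genes, 5 were lower and 0 higher. They were HFI1, which encodes the core subunit Ada1 (-0.53 ± 0.11), and TAF10, TAF5, TAF6 and TAF12, which SAGA shares with the general factor TFIID (-0.35 ± 0.06, -0.34 ± 0.06, -0.17 ± 0.05 and -0.16 ± 0.05). The TAF6 and TAF12 differences were lost with median rescaling (-0.10 and -0.08, adjusted p = 0.0887 and 0.145), that of TAF6 also without WT replicate 2 and that of TAF12 without WT replicate 3, and that of NGG1 with quantile normalization (-0.13, adjusted p = 0.0908). SPT3, SPT8 and SPT20, the core genes tied to the TATA-binding protein and to integrity of the complex, had -0.14 ± 0.08, 0.01 ± 0.07 and -0.08 ± 0.08 and did not pass (adjusted p = 0.119, 0.901 and 0.363). Nor did TAF9 (-0.12 ± 0.06, adjusted p = 0.0896) or TRA1, the subunit that activators contact (-0.07 ± 0.05, adjusted p = 0.241). In the deubiquitinase module the protease gene UBP8 was lower (-0.43 ± 0.09), while SGF11, SGF73 and SUS1 lay between -0.09 and 0.12 (adjusted p between 0.0657 and 0.755). Among 8 other genes for bromodomain proteins, 3 were higher, the acetylated-histone readers BDF1 (0.41 ± 0.04) and BDF2 (0.20 ± 0.05) and YTA7 (0.19 ± 0.05), and the 5 genes of the SWI/SNF and RSC remodellers did not pass.

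The largest difference in the genome was in URA3, which encodes the decarboxylase of the last step to UMP and is deleted in BY4741. It was read at 1.46, 0.382 and 2.30 FPKM in the WT sucrose libraries and at 7079, 7825 and 10102 in those of Spt7m (11.85 ± 0.24, adjusted p = 4.02e-17). In glucose the Spt7m libraries had 11463, 9581 and 9904 FPKM and the WT libraries 0.749, 0.731 and 0. Gcn5m in sucrose had 248, 254 and 223, a level between the others. The labels name no marker. URA3 RNA and the Spt7 label thus moved together in all 12 libraries of these strains, and their parts in the differences below cannot be told apart. Of the other BY4741 marker genes, LEU2 and MET17 were listed at 0 in all 6 libraries and HIS3 had 95.4, 92.3 and 88.4 FPKM in WT and 87.8, 89.4 and 70.0 in Spt7m (-0.17 ± 0.10, adjusted p = 0.13).

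**Figure D1:**
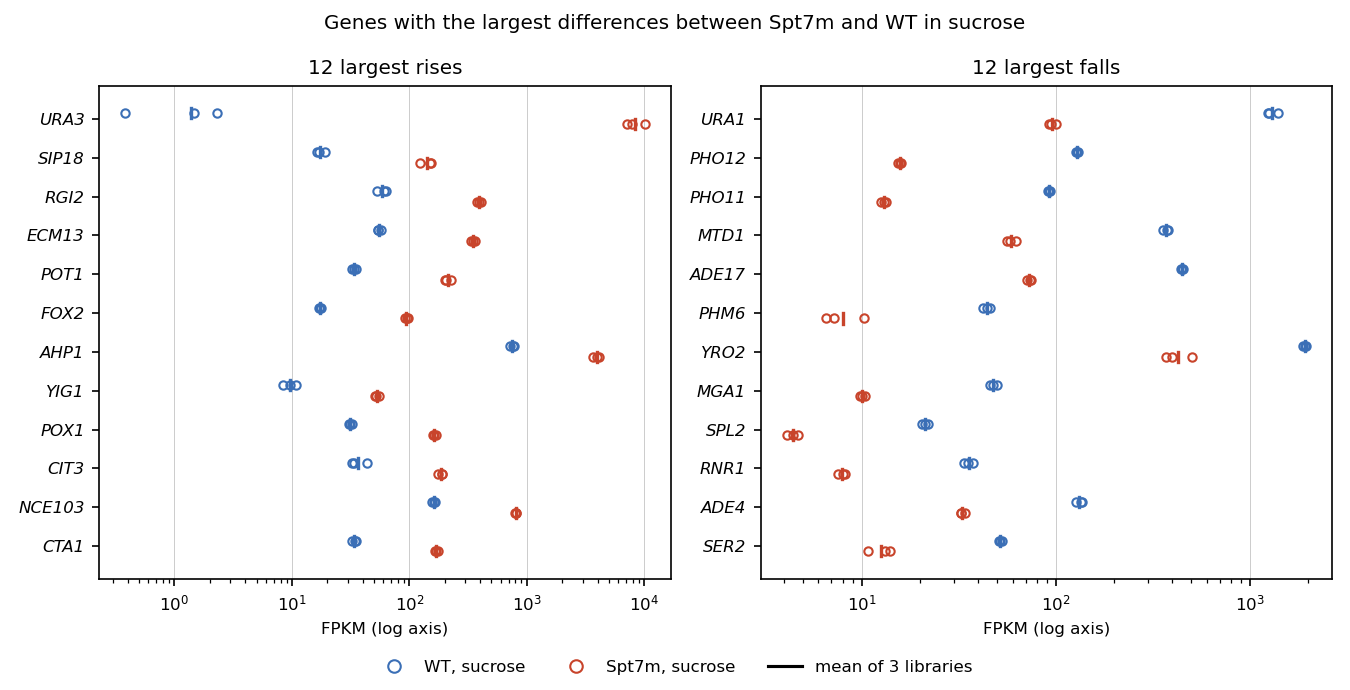
FPKM (log axis) of the 12 largest rises and the 12 largest falls in each of the 3 WT (blue) and 3 Spt7m (red) sucrose libraries, with bars at the group means. In each of the 24 genes the groups are separate, from URA3 at 0.382 to 2.30 against 7079 to 10102 FPKM to SER2, the smallest of the falls.

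To see how the mutant handled the carbon source itself, genes of sucrose and hexose use were read first. SUC2, the invertase gene, had 908, 880.5 and 868 FPKM in WT and 965, 993 and 1126 in Spt7m, higher in each mutant library than in any WT library but by a small amount (0.21 ± 0.05, adjusted p = 0.00201). In the whole list of 14 sucrose and maltose genes, 5 were higher and 3 lower, and its median was 0.01. The members with the largest differences were the isomaltase genes IMA3 (0.67 ± 0.08) and IMA4 (0.66 ± 0.08), which are near-identical and share reads, so neither value belongs to 1 gene. After quantile normalization none of the 3 lower members passed, and without Spt7m replicate 1 or WT replicate 2 only 1 did.

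High-affinity hexose transporter genes, which take up sugar when it is scarce, were the group of this kind that differed most. Of 7, 5 were higher and 2 lower, with a median of 1.03. HXT5, a transporter of slow-growing and starved cells, went from 63.5, 64.6 and 68.4 FPKM in WT to 228, 247 and 288 in Spt7m (1.94 ± 0.08). HXT2 was about as much higher in sucrose (1.03 ± 0.03) as in glucose (1.06 ± 0.03). HXT6 and HXT7 were also higher (1.06 ± 0.05 and 1.05 ± 0.05) but are near-identical copies that share reads. The lower pair was HXT4 (-1.02 ± 0.04) and the galactose permease gene GAL2 (-0.35 ± 0.10, not passed after quantile normalization). Among 9 low-affinity transporter and glucose-sensing genes, 3 were higher and 3 lower: HXT1, the transporter for abundant glucose (-0.91 ± 0.06), and STD1, a regulator of the glucose sensors (-0.98 ± 0.09), were lower, and HXT3 (0.53 ± 0.05) and the high-affinity sensor gene SNF3 (0.73 ± 0.07) higher. With either rescaling 5 members of this list were higher.

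Of 18 genes for Snf1, its partners and the repressors it controls, 6 were higher, among them the glucose repressor genes MIG1 (0.41 ± 0.05), MIG2 (0.40 ± 0.09) and MIG3 (0.53 ± 0.09), and 4 were lower, led by NRG2, another repressor of glucose-repressed genes (-1.23 ± 0.09). The lower count was 2 without Spt7m replicate 2 and 2 with median rescaling. Galactose genes, which neither medium induces, were at low levels, with GAL1 at 12.4, 11.1 and 11.8 FPKM in WT and 12.7, 14.2 and 12.4 in Spt7m (0.14 ± 0.11, adjusted p = 0.249). The GAL1 value may include reads of an annotated noncoding gene that overlaps it, since the strand setting is not given. Of 7 in this group 5 were higher, a count that was 3 without Spt7m replicate 2 or 3. GAL7 (0.35 ± 0.13) was among the calls lost there (adjusted p = 0.0592 and 0.119).

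Genes of peroxisomal fatty acid oxidation were higher almost as a whole. Of 21, 19 were higher and 1 lower (median 0.84, against -0.08 over all genes tested). POT1, the thiolase of the last step of the cycle, had 32.4, 33.5 and 35.1 FPKM in WT and 207, 203 and 225 in Spt7m (2.61 ± 0.08). FOX2, the multifunctional enzyme of the middle steps, had 17.6, 16.9 and 17.5 in WT and 96.4, 91.1 and 96.0 in Spt7m (2.38 ± 0.04). On the log2 scale these are 6.12-fold and 5.21-fold differences, and no mutant library came near the WT range. POX1, the acyl-CoA oxidase of the first step (2.34 ± 0.08), and CTA1, the peroxisomal catalase that removes the peroxide this step makes (2.28 ± 0.06), were close behind. So were the enoyl-CoA isomerase gene ECI1 (1.79 ± 0.11), the acyl-CoA synthetase gene FAA2 (1.42 ± 0.06) and PEX11, which drives peroxisome division (1.37 ± 0.06). The genes of the oleate-responsive activators Oaf1 and Pip2 differed by less (0.27 ± 0.06 and 0.71 ± 0.06). The lower member was FAA4, a cytosolic acyl-CoA synthetase (-0.79 ± 0.03), and PEX13 did not pass (0.08 ± 0.08, adjusted p = 0.38).

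The carnitine shuttle and acetate uptake, which feed acetyl units to mitochondria, followed the same direction. Within a list of 22 gluconeogenesis and glyoxylate cycle genes that includes them, 13 were higher and 3 lower (median 0.57). CAT2, the carnitine acetyltransferase (2.08 ± 0.07), CRC1, the carnitine carrier (1.48 ± 0.04), ACS1, the acetyl-CoA synthetase of nonfermentable growth (1.91 ± 0.06), ADY2, the acetate transporter (1.81 ± 0.08), and JEN1, the lactate and pyruvate transporter, were higher. JEN1 rose from 467, 474 and 502 FPKM in WT to 1450.5, 1419.6 and 1418 in Spt7m (1.57 ± 0.06). Genes of the activators of this programme were higher as well, CAT8 (0.93 ± 0.06) and ADR1 (0.81 ± 0.04).

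Most enzymes named here that are particular to gluconeogenesis and the glyoxylate cycle did not share this pattern. PCK1, phosphoenolpyruvate carboxykinase, had 319, 316 and 307 FPKM in WT and 248, 261 and 326 in Spt7m and did not pass (-0.18 ± 0.10, adjusted p = 0.103). Spt7m replicate 3 lay above all WT libraries and the others below. The malate synthase gene MLS1 did not pass either (-0.11 ± 0.11, adjusted p = 0.38). The isocitrate lyase gene ICL1 was lower (-0.35 ± 0.06), as was MDH2, the cytosolic malate dehydrogenase, which had 711, 679 and 681 FPKM in WT and 266, 271 and 259 in Spt7m (-1.38 ± 0.04). FBP1, fructose-1,6-bisphosphatase, was higher (0.45 ± 0.09). ADH2, the alcohol dehydrogenase that consumes ethanol, went from 402, 426 and 344 to 922, 924 and 812 FPKM (1.18 ± 0.10).

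Most mitochondrial genes were higher. Of 16 citric acid cycle genes, 14 were higher and 1 lower (median 0.41). The isocitrate dehydrogenase subunit genes IDH1 (1.11 ± 0.04) and IDH2 (0.92 ± 0.04) and the citrate synthase gene CIT1 (0.97 ± 0.05) were higher. Of 34 respiratory chain and ATP synthase genes, 27 were higher and 2 lower (median 0.25). NDI1, the internal NADH dehydrogenase, had 148, 138 and 162 FPKM in WT and 398, 445 and 548 in Spt7m (1.62 ± 0.08), and ATP18, a small ATP synthase subunit, had 287, 313 and 284 and 719, 705 and 735 (1.29 ± 0.07). No mutant library of either gene came near the WT range. The lower pair was CYC1, iso-1-cytochrome c (-0.48 ± 0.13), and QCR6 (-0.17 ± 0.07). The QCR6 call was lost with either rescaling, with only the compared groups, and without Spt7m replicate 1 or 2 or WT replicate 2 or 3. HAP4, the limiting activator subunit for respiratory genes, was higher (0.97 ± 0.03), as were the peroxisomal citrate synthase gene CIT2 (1.0 ± 0.05) and PDH1 of propionate metabolism (2.22 ± 0.06). CIT3, a mitochondrial methylcitrate synthase, rose from 32.5, 33.9 and 43.6 to 191, 189.8 and 177 FPKM (2.32 ± 0.14). RGI2, a gene of respiratory energy metabolism, rose from 62.8, 53.0 and 60.2 to 379, 394 and 405 (2.72 ± 0.17).

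Glycolysis showed the opposite direction. Of 20 genes, 16 were lower and 3 higher, and ADH1 did not pass (-0.09 ± 0.05, adjusted p = 0.11). The median of the list was -0.37. CDC19, the main pyruvate kinase (-0.98 ± 0.05), PDC1, the main pyruvate decarboxylase (-0.89 ± 0.08), and TDH2, a glyceraldehyde-3-phosphate dehydrogenase with near-identical copies (-0.92 ± 0.05), led the lower members. The higher members were the glucose-repressed forms: the hexokinase gene HXK1 (0.82 ± 0.04), the glucokinase gene GLK1 (1.04 ± 0.04) and the second pyruvate kinase gene PYK2 (0.47 ± 0.04).

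**Figure D2:**
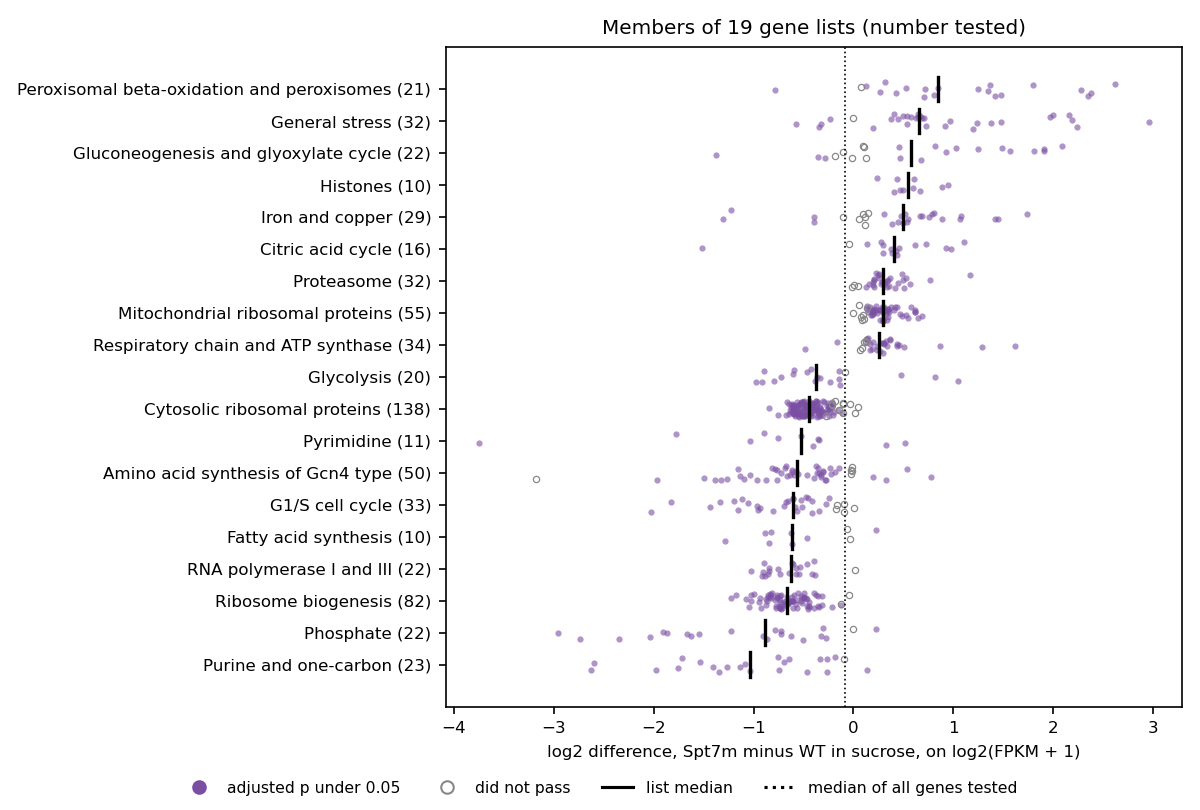
Log2 difference, Spt7m minus WT in sucrose on log2(FPKM + 1), of every tested member of 19 gene lists, with filled points for members that passed limma at an adjusted p under 0.05, open points for those that did not, and a bar at each list's median. The lists run from peroxisomal genes with a median of 0.84 to purine and one-carbon genes with -1.03, and the dotted line is the median of all genes tested at -0.08.

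Stress genes of the Msn2/Msn4 type, which yeast induces under many insults and as growth slows, were higher. Of 32, 27 were higher and 4 lower (median 0.66). SIP18, a hydrophilin of drying cells, was the largest rise after URA3, from 17.0, 19 and 16.2 FPKM in WT to 122, 152 and 151 in Spt7m (2.95 ± 0.15, adjusted p = 1.09e-11). HSP26, a small heat shock protein, had 59.5, 56.0 and 54.6 in WT and 249, 264 and 272 in Spt7m (2.19 ± 0.06). HSP12, a small membrane-protecting protein, had 1833, 1838 and 1889 and 7501, 7715 and 6980.3 (2.0 ± 0.04). In each of the 3 genes the lowest mutant library lay far above the highest WT library. MSC1 (2.23 ± 0.08), the eisosome-associated gene FMP45 (2.15 ± 0.06) and the reticulon gene RTN2 (1.96 ± 0.08) had differences of similar size. Of the activator genes, MSN2 was higher (0.40 ± 0.06) and MSN4 lower (-0.58 ± 0.05). The other lower members were SOL4 (-0.24 ± 0.06, not passed after quantile normalization), YGP1 (-0.32 ± 0.06) and the glycerol-3-phosphate dehydrogenase gene GPD1 (-0.34 ± 0.05).

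Chaperones did not follow as a group. Of 24, 11 were higher and 6 lower (median 0.10), the stress-inducible SSA4 (0.68 ± 0.07) and HSP42 (0.52 ± 0.05) higher and the constitutive SSA2 (-0.51 ± 0.05, with a near-identical copy) and YDJ1 (-0.80 ± 0.04) lower. HSP104, the disaggregase, did not pass (0.07 ± 0.05, adjusted p = 0.184). Trehalose and glycogen genes counted 9 higher and 2 lower of 17, with the trehalose synthase regulator TSL1 (1.25 ± 0.06) and the glycogen debranching enzyme gene GDB1 (0.95 ± 0.05) highest. In the peroxide defence list, 10 of 16 were higher and 3 lower. AHP1, a thiol peroxidase of the cytosol, rose from 762, 777 and 724 to 4149, 3990.2 and 3629 FPKM (2.38 ± 0.06). The superoxide dismutase gene SOD1 (1.34 ± 0.07), the thioredoxin peroxidase gene TSA2 (1.21 ± 0.08) and the thioredoxin gene TRX2 (1.10 ± 0.11) were higher too, while the glutathione reductase gene GLR1 (-0.46 ± 0.04) was lower.

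The growth programme was lower. Ribosome biogenesis factors, which make and assemble ribosomes in the nucleolus, were lower in 80 of 82 genes and higher in 0 (median -0.66). UTP14 (-0.12 ± 0.06, adjusted p = 0.0843) and NOG1 (-0.05 ± 0.05, adjusted p = 0.381) did not pass. BFR2, a factor of the small subunit processome, had 36.2, 33.6 and 33.1 FPKM in WT and 14.9, 14.9 and 13.9 in Spt7m (-1.18 ± 0.06). UTP18 of the same complex had 80.6, 82.7 and 83.4 and 47.7, 37.6 and 33.8 (-1.05 ± 0.09), 2.26-fold and 2.07-fold lower on this scale, with no overlap between the strains. RNA polymerase I and III genes gave 21 lower of 22 and 0 higher, led by RPA49 (-1.03 ± 0.06) and RPC82 (-0.92 ± 0.09). Cytosolic ribosomal protein genes were lower in 127 of 138 and higher in 0 (median -0.44), with RPL18B (-0.84 ± 0.05) the furthest. Among these 138, 54 have a near-identical copy that can share their reads.

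Mitochondrial ribosomal protein genes went the other way, with 48 of 55 higher and 0 lower (median 0.29), MRPL39 by 0.68 ± 0.09. Proteasome genes were higher in 29 of 32 and lower in 0 (median 0.30), with the core subunit genes PRE8 (1.17 ± 0.04) and PRE3 (0.77 ± 0.05) highest. RPN4, which encodes the activator of proteasome genes, did not pass (-0.01 ± 0.05, adjusted p = 0.805).

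Purine synthesis and one-carbon genes fell further than any other list in the plot of list members. Of 23, 21 were lower and 1 higher (median -1.03). ADE17, an enzyme of the last steps to IMP, had 456, 442 and 448 FPKM in WT and 71.3, 73.8 and 74.7 in Spt7m (-2.60 ± 0.04). MTD1, a cytosolic folate dehydrogenase, had 380.5, 374 and 358 in WT and 58.1, 62.6 and 56.5 in Spt7m (-2.63 ± 0.05). The levels were 6.05-fold and 6.19-fold lower on this scale, and the libraries of a strain lay close together. ADE4, which commits the pathway (-1.97 ± 0.06), ADE2 (-1.75 ± 0.04), the serine hydroxymethyltransferase gene SHM2 (-1.72 ± 0.05) and the glycine decarboxylase subunit gene GCV1 (-1.41 ± 0.08) were lower as well. The higher member was ADE16, the paralog of ADE17 (0.14 ± 0.05). Its call was lost with quantile normalization, with only the compared groups, and without Spt7m replicate 3 or WT replicate 1 or 2. BAS1, the activator gene of the pathway, was lower (-0.27 ± 0.09, a call lost with either rescaling and without Spt7m replicate 3 or WT replicate 2 or 3), and its partner gene PHO2 did not pass (-0.10 ± 0.06, adjusted p = 0.197).

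Amino acid synthesis genes of the type that Gcn4 activates were lower in 41 of 50 and higher in 4 (median -0.56), while GCN4 RNA itself was higher (0.19 ± 0.04, and 0.35 after quantile normalization). The serine pathway phosphatase gene SER2 (-1.96 ± 0.07), the leucine pathway gene LEU9 (-1.50 ± 0.05) and the histidine genes HIS4 (-1.39 ± 0.06) and HIS7 (-1.33 ± 0.05) had the largest falls. SER3, the first enzyme of serine synthesis, had 182, 183 and 179.7 FPKM in WT and 0.304, 78.9 and 79.0 in Spt7m and did not pass (-3.17 ± 1.72, adjusted p = 0.109). Spt7m replicate 1 stood apart from the other mutant libraries, and without it the difference was -1.19 (adjusted p = 0.54). SER3 was also near 0 in Gcn5m sucrose replicate 3 (0.243 FPKM) and Spt7m glucose replicate 3 (0.367). Those libraries widen the spread that the groups share, so this p-value does not show that SER3 was unchanged. Of 30 sulfate and methionine genes, 17 were lower, a count that was 11 after quantile normalization, and 6 were higher, with the S-adenosylmethionine synthetase genes SAM1 (-1.06 ± 0.04) and SAM2 (-1.07 ± 0.06) lowest. Nitrogen catabolite repression genes were mixed, 8 higher and 10 lower of 26.

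Pyrimidine genes other than URA3 were lower in 9 of 11 and higher in 2 (median -0.53). URA1, dihydroorotate dehydrogenase, fell furthest of all genes that the naming rule covers, from 1261, 1244 and 1397 FPKM in WT to 100.5, 95.3 and 92.5 in Spt7m (-3.74 ± 0.05). URA4, dihydroorotase, had 523, 517 and 579 and 164, 154 and 153 (-1.78 ± 0.06). These enzymes act upstream of the URA3 product, and the expression of both in all mutant libraries was far below the lowest WT library. The exceptions were the orotate phosphoribosyltransferase genes URA5 (0.33 ± 0.05) and URA10 (0.52 ± 0.06). URA1 and URA4 were lower by similar amounts in Gcn5m, which shares the WT libraries (-3.71 ± 0.05 and -1.66 ± 0.06), and URA2 was lower there too (-0.85 ± 0.03). The list as a whole was further below WT in Gcn5m (median -0.85). Of the 11 genes, 5 were higher in Spt7m than in Gcn5m and 0 lower. URA3 RNA, at 7079 FPKM or more in Spt7m, moves with the strain here, and its part was not tested.

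Phosphate genes were lower in 20 of 22 and higher in 1 (median -0.88). SPL2, which restrains low-affinity phosphate uptake, had 20.5, 21.3 and 22 FPKM in WT and 4.11, 4.69 and 4.46 in Spt7m (-2.04 ± 0.09). PHM6 had 42.3, 46.0 and 44.2 and 6.57, 10.2 and 7.19 (-2.35 ± 0.16). The phosphatase gene PHO5 (-1.91 ± 0.07), the polyphosphate synthesis gene VTC3 (-1.86 ± 0.07) and the sodium-coupled transporter gene PHO89 (-1.66 ± 0.05) were lower. PHO84, the high-affinity transporter, was lower (-1.55 ± 0.07) in a locus that overlaps an antisense RNA, and PHO11 (-2.74 ± 0.07) and PHO12 (-2.96 ± 0.06) are near-identical copies that share reads. PHO4, the activator gene, was lower (-0.72 ± 0.07), and the low-affinity transporter gene PHO87 was the higher member (0.22 ± 0.06).

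Fatty acid and phospholipid genes leaned down, while ergosterol genes were more mixed (median -0.20). Of 10 fatty acid genes 7 were lower and 1 higher, with the elongase gene ELO3 (-1.28 ± 0.04), the synthase gene FAS1 (-0.89 ± 0.04) and the desaturase gene OLE1 (-0.84 ± 0.04) lowest. Inositol and phospholipid genes were lower in 11 of 15 and higher in 2, but INO1, the inositol-3-phosphate synthase gene, did not pass (0.14 ± 0.10, adjusted p = 0.199). Of 25 ergosterol genes, 14 were lower, among them ERG7 (-0.76 ± 0.07), and 6 higher, among them ROX1, the repressor of low-oxygen genes (1.13 ± 0.05).

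Iron and copper uptake genes were higher in 19 of 29 and lower in 4 (median 0.50). FIT2, a cell wall mannoprotein that retains siderophores, had 2938, 2838 and 2669 FPKM in WT and 9830.0, 9691 and 8636 in Spt7m (1.74 ± 0.08). TIS11, which destroys mRNAs of iron-using proteins in iron shortage, had 71.0, 73.2 and 63.9 and 203, 187 and 181 (1.44 ± 0.06). Each was higher in every mutant library. The siderophore transporter gene SIT1 (1.08 ± 0.06), the copper transporter gene CTR1 (0.81 ± 0.04) and the regulator gene AFT1 (0.47 ± 0.08) were higher. The metallothionein gene CUP1-2 was lower (-1.30 ± 0.06) but is 1 of the near-identical CUP1 repeats. FRE4 (-0.40 ± 0.08, and -0.26 after quantile normalization) and the low-affinity transporter gene FET4 (-0.40 ± 0.04) were lower too. In the zinc list, 4 of 11 were higher and 5 lower, with IZH4 lowest (-1.65 ± 0.17).

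Genes that peak at the start of the cell cycle were lower. Of 33 G1/S genes, 28 were lower and 0 higher (median -0.60). RNR1, the large subunit of ribonucleotide reductase, had 35.5, 37.6 and 33.8 FPKM in WT and 7.61, 8.07 and 8.25 in Spt7m (-2.03 ± 0.08). The G1 cyclin genes PCL1 (-1.83 ± 0.14) and CLN1 (-1.44 ± 0.10) and the replication gene CDC45 (-1.33 ± 0.13) were lower. SWI4, a subunit of SBF, an activator of G1 cyclin genes, did not pass (-0.09 ± 0.08, adjusted p = 0.326). Genes of mitosis and of the M/G1 boundary were mixed, 10 higher and 13 lower of 28: the daughter-cell genes DSE4 (1.11 ± 0.05) and SCW11 (1.10 ± 0.05) were higher, and SWI5, which encodes an activator of M/G1 genes (-0.98 ± 0.10), was lower. All 10 histone genes, the linker gene HHO1 (0.43 ± 0.07) and the variant gene HTZ1 (0.24 ± 0.07) among them, were higher (median 0.55). HHF2 had 564, 623 and 494 FPKM in WT and 1135, 1123 and 983 in Spt7m (0.95 ± 0.07), but 6 of the 10 have near-identical copies. In asynchronous cultures, fewer cells in a phase and less RNA per cell cannot be told apart.

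The mating type of the strain was read from its markers. Genes specific to a cells were expressed in both strains, MFA1 at 3058, 3141 and 3189.9 FPKM in WT and 1731, 1714 and 1423 in Spt7m, and 7 of 7 were lower in Spt7m, between -0.95 for MFA1 and -0.09 for BAR1. The count was 6 with median rescaling, with only the compared groups and without any 1 library other than WT replicate 2. Of the alpha-cell markers MF(ALPHA)1 was under the limit of 1 FPKM. Among the 3 tested, 1 was lower and 1 higher, the latter by 0.21. The lower one was STE3, the receptor gene, with 3.79, 3.22 and 3.99 FPKM in WT and 1.11, 1.33 and 1.15 in Spt7m (-1.08 ± 0.11). Pheromone response genes were lower in 12 of 17, among them the arrest gene FAR1 (-1.08 ± 0.05). The 6 meiosis markers included 3 lower ones at low levels, 1 with a filter of 5 FPKM.

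Several of the largest differences lay outside these lists. ECM13, a gene of unknown function, rose from 54.2, 57.4 and 54.1 FPKM in WT to 361, 351 and 335 in Spt7m (2.64 ± 0.06). NCE103, carbonic anhydrase, rose from 162, 155 and 166 to 802, 805 and 800.1 (2.31 ± 0.06), and YIG1, a partner of the glycerol-3-phosphatase enzymes, from 9.59, 8.38 and 10.8 to 54.9, 52.0 and 51.1 (2.34 ± 0.12). None of these values overlapped. YRO2, a membrane protein related to HSP30, fell from 1880.4, 1921 and 1952 to 399, 369.6 and 506 (-2.18 ± 0.08), and MGA1, a heat shock factor-like regulator of filamentous growth, from 49.9, 45.8 and 47.8 to 10.1, 10.4 and 9.85 (-2.14 ± 0.06). In the drug pump and membrane list, PDR10 was higher (1.23 ± 0.06) and PMA1, the plasma membrane proton pump, was lower (-0.74 ± 0.05).

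Whether the strain difference depended on the medium was tested as the Spt7m minus WT difference in sucrose less that in glucose, from 12 libraries. In glucose 3108 genes (53.2%) differed between the strains, 917 (15.7%) higher and 2191 (37.5%) lower in Spt7m. The medium interaction passed for 2773 of 5841 genes (47.5%), 1398 (23.9%) more positive and 1375 (23.5%) more negative in sucrose, and for 197 (3.37%) by at least 2-fold. The near-even split depended on the scale, with 1303 more positive and 1539 more negative after quantile normalization and 1227 and 1644 after median rescaling. Stress and peroxisomal genes depended on the medium. General stress genes had a median of -0.28 in glucose, where 22 of 32 were lower and 4 higher, against 0.66 in sucrose, and the interaction was positive for 27. SIP18 was lower in Spt7m in glucose (-0.81 ± 0.15), with an interaction of 3.76 ± 0.21. In Spt7m it went from 4.89, 2.18 and 3.43 FPKM in glucose to 122, 152 and 151 in sucrose, and in WT from 6.89, 7.18 and 5.90 to 17.0, 19 and 16.2. HSP26 (2.92 ± 0.09), RTN2 (2.89 ± 0.11), EGO4 (2.96 ± 0.10), YIG1 (2.87 ± 0.17) and FOX2 (2.62 ± 0.06) had the next most positive interactions. EGO4, for example, was lower in Spt7m in glucose (-1.55 ± 0.07) and higher in sucrose (1.41 ± 0.07). Peroxisomal genes had a glucose median of -0.03, and the interaction was positive for 18 of 21.

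Respiratory chain genes also reversed, with 19 of 34 lower and 2 higher in glucose (median -0.22) and a positive interaction for 31. Glycolysis reversed the other way, 9 of 20 higher and 3 lower in glucose, with a negative interaction for 15. PDC5, a second pyruvate decarboxylase, had the most negative interaction (-2.83 ± 0.15), higher in Spt7m in glucose (2.1 ± 0.10) and lower in sucrose (-0.73 ± 0.10). Purine genes differed further from WT in sucrose. In glucose 15 of 23 were lower and 3 higher, with a median of -0.16, and the interaction was negative for 20 of 23, with ADE17 (-2.44 ± 0.06), MTD1 (-2.11 ± 0.07) and ADE4 (-1.84 ± 0.08) among the most negative of all genes. Ribosome biogenesis genes were lower in both media, with medians of -0.21 in glucose and -0.66 in sucrose and a negative interaction for 69 of 82. The 10 histone genes all had a positive interaction that passed.

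Other groups differed between the strains in both media. Phosphate genes were lower in 20 of 22 in glucose too (median -0.73), pyrimidine genes in 10 of 11 (-0.55), with URA1 at -3.22 ± 0.05. Proteasome genes were higher in 23 of 32 and mitochondrial ribosomal protein genes in 51 of 55. Iron and copper genes were further above WT in glucose than in sucrose, with a glucose median of 0.91 and a negative interaction for 17 of 29. FIT2 differed by 3.17 ± 0.08 in glucose (interaction -1.43 ± 0.11), and the siderophore transporter gene ARN2 by 2.54 ± 0.05 in glucose and 0.54 ± 0.05 in sucrose (interaction -2.0 ± 0.07). SUC2 was higher in Spt7m in glucose as well (0.36 ± 0.05), and its interaction did not pass (-0.14 ± 0.08, adjusted p = 0.132).

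**Figure D3:**
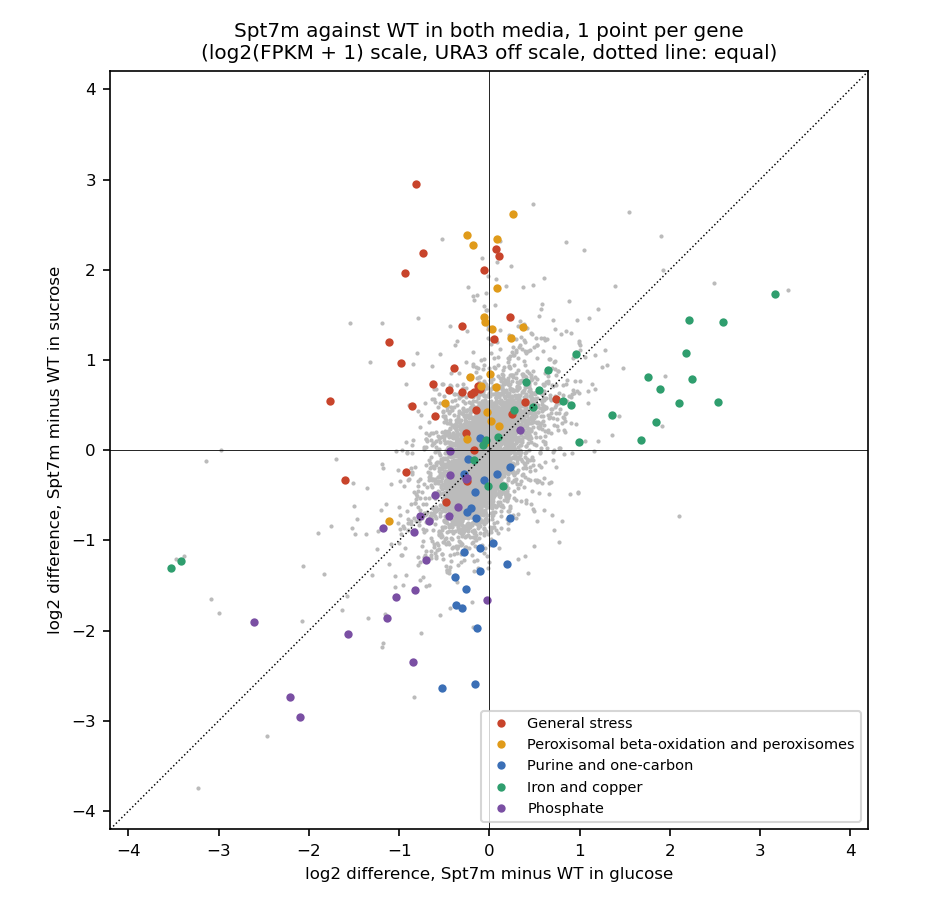
Log2 difference, Spt7m minus WT, in glucose (horizontal) and in sucrose (vertical), 1 point per tested gene, with 5 gene lists coloured, URA3 off scale and a dotted line where both are equal. Most general stress and peroxisomal genes lie above the line (glucose medians -0.28 and -0.03, sucrose medians 0.66 and 0.84), most purine genes lie below it, and phosphate genes are low in both media.

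The bromodomain mutants were then compared with each other in sucrose, a contrast that leaves out the WT libraries. Spt7m and Gcn5m differed in 1151 of 5841 genes (19.7%), 668 (11.4%) higher and 483 (8.27%) lower in Spt7m, and the count was 748 without Spt7m replicate 3. The balance of directions depended on the scale, with 596 higher and 642 lower after quantile normalization. At 2-fold or more, 35 genes (0.599%) were higher in Spt7m and 0 lower. The differences were widest in respiration: 33 of 34 respiratory chain genes were higher in Spt7m than in Gcn5m (median 0.65), and COX5B did not pass (-0.04 ± 0.06, adjusted p = 0.715). CYC1 had 31.6, 35.4 and 27.8 FPKM in Gcn5m and 109, 122 and 152 in Spt7m (1.98 ± 0.13), beside 179, 176 and 178 in WT. NDI1 had 145, 136 and 133 in Gcn5m and 398, 445 and 548 in Spt7m (1.73 ± 0.08). For CYC1 both mutants were below WT, Gcn5m by far more, and for NDI1 Gcn5m was near WT while every Spt7m library was above it. Spt7m replicate 3 was the highest Spt7m library for both genes. Without it the differences between the mutants were 1.85 for CYC1 and 1.6 for NDI1, and 33 of the 34 genes were still higher in Spt7m. Against the shared WT libraries, the median of the list was -0.37 in Gcn5m and 0.25 in Spt7m.

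LEU1, the isopropylmalate isomerase of leucine synthesis, had 22.4, 22.7 and 22.6 FPKM in Gcn5m, 116, 123 and 161 in Spt7m and 237, 236 and 224 in WT, so it was lower in both mutants and lowest in Gcn5m (Spt7m minus Gcn5m 2.50 ± 0.08). TIR1, a mannoprotein of cold and low oxygen, had 7.79, 6.71 and 6.0, 33.9, 37.5 and 45.4 and 20.6, 21.6 and 17.5 FPKM in the same order (2.35 ± 0.10), above WT in Spt7m and below it in Gcn5m. Of 25 low-oxygen and cell wall genes, 19 were higher in Spt7m than in Gcn5m and 1 lower (median 0.40). PHO84 (2.07 ± 0.07) and SIP18 (2.09 ± 0.15) were among the 6 largest differences, as was URA3 (5.09 ± 0.24). Ergosterol genes were higher in Spt7m in 16 of 25 and lower in 1, ERG11 by 0.77 ± 0.07 and the reductase gene HMG1 by 0.89 ± 0.05. General stress genes were higher in 21 of 32 and lower in 3. RNR1 was lower than WT in both mutants and higher in Spt7m than in Gcn5m (1.14 ± 0.08), and SUC2 was higher in Spt7m (0.57 ± 0.05), with Gcn5m below WT (-0.36 ± 0.05).

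The differences in the other direction were smaller. The most negative by the naming rule were CHA1, the serine and threonine deaminase that yeast uses to degrade them (-0.62 ± 0.06), the glutathione transferase gene GTO3 (-0.58 ± 0.08), YLR108C (-0.58 ± 0.09), HXT3 (-0.53 ± 0.05), TIS11 (-0.52 ± 0.06) and BNA2 of NAD synthesis (-0.50 ± 0.07). CHA1 did not pass against WT (0.02 ± 0.06, adjusted p = 0.812). Of 82 ribosome biogenesis genes 29 were lower and 3 higher in Spt7m than in Gcn5m, of 21 peroxisomal genes 8 and 1, and of 23 purine genes 11 and 3, with list medians of -0.11, -0.14 and -0.12. Most members of these lists did not pass between the mutants, which does not show that the mutants act alike. POT1, for instance, differed by 0.09 ± 0.08 (adjusted p = 0.484) and URA1 by -0.03 ± 0.05 (adjusted p = 0.716). Against the same WT libraries, Gcn5m was higher in 1638 genes and lower in 2487. Ribosome biogenesis genes were lower in 80 and higher in 0 (median -0.53), peroxisomal genes higher in 19 and lower in 1 (1.05). Purine genes were lower in 21 and higher in 1 (-0.75), phosphate genes lower in 21 of 22 and higher in 1 (-1.17). All 10 histone genes were higher (0.77). These list differences from WT were thus seen in both mutants, through WT libraries that both share.

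**Figure D4:**
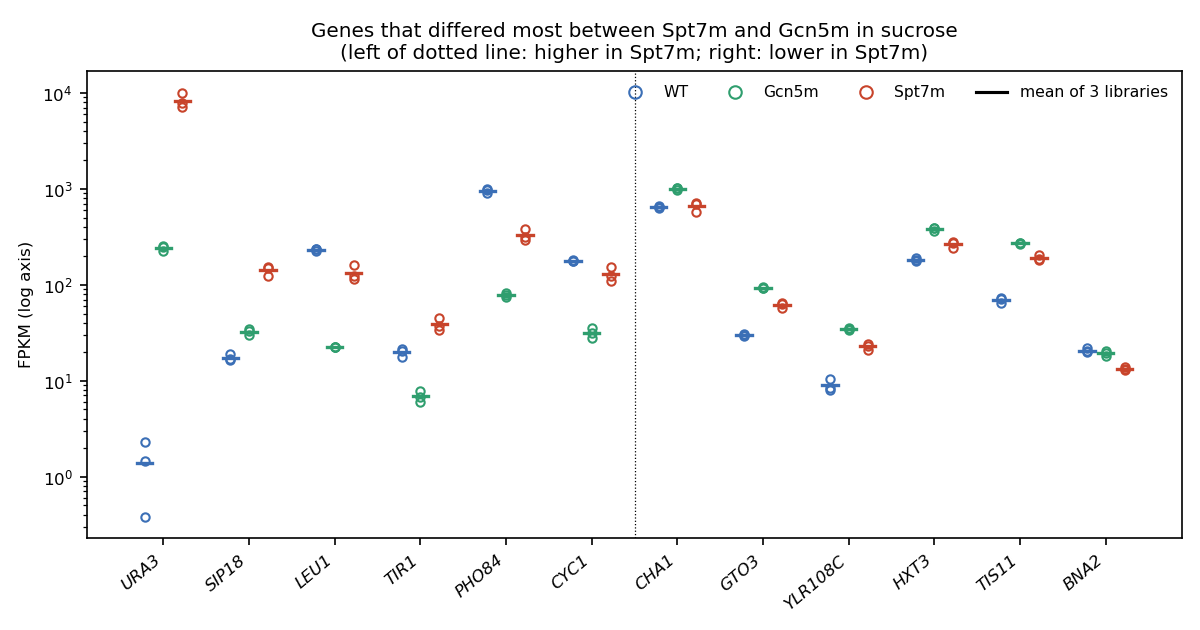
FPKM (log axis) in the 3 sucrose libraries each of WT (blue), Gcn5m (green) and Spt7m (red) for the 6 genes most above and the 6 most below Gcn5m in Spt7m, with bars at group means. The left 6, from URA3 at 241.5 FPKM on average in Gcn5m and 8335 in Spt7m, separate by more than the right 6, whose differences lie between -0.62 and -0.50 on the log2 scale.

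Ada3-3KR, a SAGA mutant measured in a separate table against its own WT, is set beside these values as a description. It differed from its WT in sucrose in 3261 of 5830 genes (55.9%). ECM13 was -2.84 ± 0.09 there and 2.64 ± 0.06 in Spt7m, CIT2 -4.03 ± 0.04 and 1.0 ± 0.05, and HAP4 -1.61 ± 0.04 and 0.97 ± 0.03, each lower in Ada3-3KR and higher in Spt7m. G1/S genes stood at a median of 0.58 against -0.60, and purine genes at 0.51 against -1.03. RNR1 was 1.48 ± 0.04 and PCL1 2.21 ± 0.07 in Ada3-3KR. Other lists shared a direction. Proteasome genes stood at a median of 0.33 in Ada3-3KR against 0.30 in Spt7m, and respiratory chain genes at 0.47 against 0.25. Citric acid cycle genes stood at 0.35 against 0.41, and cytosolic ribosomal protein genes at -0.13 against -0.44. Among single genes, YRO2 (-2.13 ± 0.04), MGA1 (-1.76 ± 0.05) and NRG2 (-1.61 ± 0.04) were lower in Ada3-3KR, as in Spt7m. Nothing was tested between the tables.

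Promoters were searched for the words shown in the printed sequences, in the 300 bases before the start codon of 5763 tested genes. A TATA box (TATAAAAA, TATAAAAG, TATAAATA, TATAAATG, TATATAAA, TATATAAG, TATATATA or TATATATG on the gene's strand, overlaps counted once per promoter) was found in 29.8% of them. The share was 57.2% of promoters of genes at least 2-fold higher in Spt7m (79 of 138) and 49.6% of those at least 2-fold lower (70 of 141), against 35.4% of all called higher, 29.4% of all called lower and 25% of those that did not pass. Large differences in both directions thus came with more TATA words than small ones. Longer windows or other definitions were not searched.

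The elements of known regulators, on either strand, were found in larger shares of the matching lists than of all 5763 promoters. The stress response element was in 75.0% of general stress promoters against 22.4%, and the oleate half-site in 85.7% of peroxisomal promoters against 22.5%. The PAC core was in 92.7% of ribosome biogenesis promoters and 77.3% of RNA polymerase I and III promoters, against 18.9%. The Gcn4 element was in 68.0% of amino acid and 65.2% of purine and one-carbon promoters, against 7.86%. The Pho4 element was in 50% of phosphate promoters against 3.59%, the Aft element in 51.7% of iron and copper promoters against 4.03%, and the MCB element in 42.4% of G1/S promoters against 3.54%. The proteasome element GGTGGCAAA was in 84.4% of proteasome promoters against 1.25%, and CCAAT, the word of the Hap complex, in 85.3% of respiratory promoters against 42.1%. These lists are of known targets, so the shares describe the lists and not the strain difference, and a match is not a bound site.

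**Figure D5:**
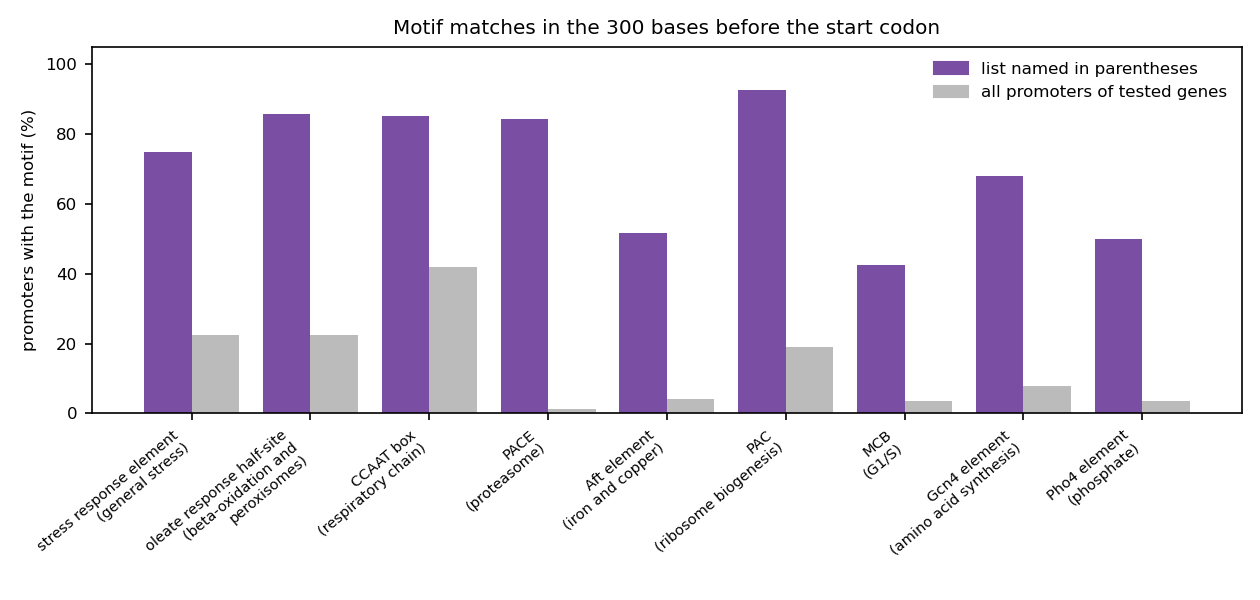
Share of promoters (percent, bars from 0) that hold each element in the 300 bases before the start codon, for the matching gene list (purple) and for all 5763 promoters of tested genes (grey). The shares range from 42.4% for the MCB element in G1/S genes to 92.7% for the PAC core in ribosome biogenesis genes, each above that of all promoters.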

How the data were processed

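RNA from 30 libraries was sequenced. The authors deposited FPKM per gene in a table per set, 12 libraries with Ada3-3KR and 18 with the bromodomain mutants, used as deposited with no columns left out. Build R64 and the tools StringTie 1.3.3b, HISAT2 2.1.0 and cutadapt 1.16 are listed in the submitters' processing notes. Roles, filters, strand setting and annotation are not given in the sources used here. FPKM are not counts, so depth and counting error are unknown, and unequal RNA content of strains is not visible.

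All fits used log2(FPKM + 1). Genes that averaged 1 FPKM or more in the 18 libraries were fitted with limma 3.58.1 (R 4.3.3 with data.table, version 1.17.8), 1 mean per group, a variance trend and a spread shared by the 6 groups, with Benjamini-Hochberg adjustment per comparison. Ada3-3KR was fitted within its own table. In data simulated for Spt7m against WT in sucrose, with 200 of 5841 genes changed, 66, 94, 100 and 100% of genes changed by log2 0.3, 0.6, 1 and 2 were recovered, with 6 false calls. The simulation changed far fewer genes than the 4108 called in the data. The adjusted p depends on that share, so the recovered shares and false calls do not carry over to the data. Replicate numbers did not pair the libraries.

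Of 6101 gene names, 6097 matched RefSeq's R64 table, 2 of them (OCT1 and MAY24) restored from dates. BLAST 2.17.0 found near-identical copies (90% identity or more along 50% of the gene or more). Tables and figures used Python 3.11.15, pandas 2.3.3, numpy 2.4.6 and matplotlib 3.10.9. Some genes are not reported here by name. The genes and lists were chosen with earlier results of these data known. Genes were named by rule: SAGA genes; the 12 largest rises and falls of called protein-coding genes that averaged 5 FPKM or more and whose groups were separate; up to 4 called members of each list with at least 3; 6 genes per direction for the medium interaction and for Spt7m against Gcn5m; and SUC2, HXT7, ADH2, HXK1, CIT2, HAP4, GAL1, HSP12, PHO84, INO1 and the marker genes. Members named beyond this, such as those that go against their list or encode its activators, were chosen after their values were seen, as were all motifs but the TATA box. Alternatives tried were leaving out each library, only the compared groups, at least 2-fold, a replicate block, median rescaling or quantile normalization, a filter of 5 FPKM or none, and a pseudocount of 0.1.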

Additional observations from a re-analysis of the deposited data

Results flagged for a closer look

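The difference between Spt7m and WT was not the same in sucrose as in glucose for 164 of the 216 tested genes named in the text, by limma's interaction test at an adjusted p under 0.05 (96 more positive and 68 more negative in sucrose). Over all genes tested the share was 47.5%, and genes named for their interaction are among the 164. Many others were named for a large difference in sucrose, which is itself a term of the interaction. The naming thus raises the share, and its excess over 47.5% is not a result. Each value is the interaction on the log2 scale, and no explanation was weighed. Carbon uptake and sugar signalling genes with a more positive difference in sucrose were HXT5 (1.95), HXT7 (0.78), HXT6 (0.78), IMA3 (0.78), SNF3 (0.77), IMA4 (0.75), GAL1 (0.59), MIG1 (0.45) and MIG2 (0.32). Carbon uptake and sugar signalling genes with a more negative difference in sucrose were HXT1 (-1.01), HXT4 (-0.84), NRG2 (-0.81) and STD1 (-0.49). Gluconeogenic, acetate and carnitine genes with a more positive difference in sucrose were CAT2 (1.99), ADY2 (1.43), ACS1 (1.31), CAT8 (1.07), JEN1 (1.0), CRC1 (0.93), ADR1 (0.91), FBP1 (0.67) and MDH2 (0.46). Fatty acid oxidation genes with a more positive difference in sucrose were FOX2 (2.62), CTA1 (2.46), POT1 (2.36), POX1 (2.25), ECI1 (1.71), FAA2 (1.47), PEX11 (1.0), PIP2 (0.63) and FAA4 (0.33). Mitochondrial and retrograde genes with a more positive difference in sucrose were HAP4 (1.24), PDH1 (1.18), CIT2 (1.09), NDI1 (1.03), CIT1 (0.77), QCR6 (0.54), ATP18 (0.49) and COX5B (0.38). Mitochondrial and retrograde genes with a more negative difference in sucrose were IDH2 (-0.33) and IDH1 (-0.18). Glycolytic genes with a more positive difference in sucrose were GLK1 (0.81), HXK1 (0.35) and PYK2 (0.23). Glycolytic genes with a more negative difference in sucrose were PDC5 (-2.83), PDC1 (-1.61), TDH2 (-0.86), CDC19 (-0.82) and ADH1 (-0.36). General stress genes with a more positive difference in sucrose were SIP18 (3.76), HSP26 (2.92), RTN2 (2.89), MSC1 (2.16), HSP12 (2.05), FMP45 (2.04), YGP1 (1.27) and SOL4 (0.68).

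Chaperone, storage carbohydrate, redox and proteasome genes with a more positive difference in sucrose were TSA2 (1.57), SSA4 (1.26), TSL1 (0.67), GDB1 (0.67), HSP42 (0.62), SOD1 (0.61), TRX2 (0.50), AHP1 (0.47), HSP104 (0.31), RPN4 (0.28) and PRE8 (0.16). Chaperone, storage carbohydrate, redox and proteasome genes with a more negative difference in sucrose were SSA2 (-0.63) and YDJ1 (-0.61). Ribosome and RNA polymerase genes with a more negative difference in sucrose were UTP18 (-1.05), RPA49 (-0.84), RPC82 (-0.75), BFR2 (-0.59), RPL18B (-0.55) and UTP14 (-0.48). Purine and one-carbon genes with a more positive difference in sucrose numbered 1, ADE16 (0.24). Purine and one-carbon genes with a more negative difference in sucrose were ADE17 (-2.44), MTD1 (-2.11), ADE4 (-1.84), ADE2 (-1.45), SHM2 (-1.35) and GCV1 (-1.02). Amino acid and sulfur genes with a more positive difference in sucrose numbered 1, GCN4 (0.31). Amino acid and sulfur genes with a more negative difference in sucrose were SER2 (-1.78), SAM1 (-1.55), SAM2 (-0.95), HIS7 (-0.88), LEU9 (-0.83) and HIS4 (-0.34). Pyrimidine and phosphate genes with a more positive difference in sucrose were URA10 (1.07), PHO5 (0.70) and URA2 (0.34). Pyrimidine and phosphate genes with a more negative difference in sucrose were PHO89 (-1.64), PHM6 (-1.50), PHO12 (-0.86), VTC3 (-0.73), PHO84 (-0.73), PHO11 (-0.53), URA1 (-0.52), SPL2 (-0.47), PHO4 (-0.28) and URA5 (-0.27).

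Metal, lipid, low-oxygen and cell wall genes with a more positive difference in sucrose were CUP1-2 (2.22), TIR1 (1.57), IZH4 (1.44), ROX1 (1.01) and OLE1 (0.92). Metal, lipid, low-oxygen and cell wall genes with a more negative difference in sucrose were ARN2 (-2.0), FIT2 (-1.43), SIT1 (-1.11), CTR1 (-0.95), ELO3 (-0.80), TIS11 (-0.77), FET4 (-0.54) and FRE4 (-0.38). Cell cycle, histone and mating genes with a more positive difference in sucrose were HHF2 (1.01), DSE4 (0.81), SCW11 (0.67), HHO1 (0.35) and HTZ1 (0.31). Cell cycle, histone and mating genes with a more negative difference in sucrose were PCL1 (-1.28), RNR1 (-1.28), FAR1 (-1.2), CDC45 (-0.87), SWI5 (-0.86), CLN1 (-0.67), MFA1 (-0.42) and BAR1 (-0.22). SAGA and other chromatin genes with a more positive difference in sucrose were BDF1 (0.39) and YTA7 (0.24). SAGA and other chromatin genes with a more negative difference in sucrose were HFI1 (-0.46) and BDF2 (-0.20). Drug pump, membrane and marker genes with a more positive difference in sucrose numbered 1, PDR10 (0.59). Drug pump, membrane and marker genes with a more negative difference in sucrose were YRO2 (-1.0), URA3 (-0.95) and PMA1 (-0.41). Genes of no list here with a more positive difference in sucrose were EGO4 (2.96), YIG1 (2.87), RGI2 (2.24), SPG4 (2.21), CIT3 (2.20), SPG1 (2.05), NDE2 (1.66), NCE103 (1.46), AAC1 (1.36), ADH2 (1.162), CYB2 (1.11), ECM13 (1.09), MPC3 (1.05), YLR108C (0.90), BIO2 (0.79), ALD4 (0.74), ZWF1 (0.61), CHA1 (0.58), GTO3 (0.49), ISU1 (0.36) and RIB4 (0.18). Genes of no list here with a more negative difference in sucrose were SLT2 (-1.53), UTR2 (-1.49), MGA1 (-0.96), HNM1 (-0.54), AAH1 (-0.47) and BNA2 (-0.45).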

How the results depend on the processing

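For Spt7m against WT in sucrose, 4108 genes passed as reported, 4090 with a pseudocount of 0.1, 4139 with no filter, 3948 with a filter of 5 FPKM, 4052 with quantile normalization (1977 higher and 2075 lower), 4082 with median rescaling (2011 and 2071) and 4048 with only the compared groups. Asking for at least 2-fold left 283 genes, 197 for the interaction with medium and 35 for Spt7m against Gcn5m. Leaving out 1 library gave 3889 to 3930 genes for Spt7m against WT, 2595 to 2704 for the interaction and 748 to 1022 for Spt7m against Gcn5m. The last was lowest, at 748, without Spt7m replicate 3. Libraries with the same number did not deviate together (correlations of -0.24, -0.176 and 0.0387), and a replicate block gave 4138, 2808 and 1143 genes. No named gene that passed changed sign under any alternative run. The balance of higher and lower genes did turn: for Spt7m against Gcn5m it was 668 and 483 as reported and 596 and 642 with quantile normalization, and for the interaction 1398 and 1375 as reported, 1303 and 1539 with quantile normalization and 1227 and 1644 with median rescaling. Named genes that lost their call under at least 1 alternative numbered 12 and those that gained one 10. Those lost were NGG1, TAF6, TAF12, IMA5, GAL7, ADE16, BAR1, BAS1, COX5B, GAL2, QCR6 and SOL4. QCR6 was -0.09 with median rescaling and BAS1 -0.12 with quantile normalization. Among list counts, the sulfate and methionine genes that were lower numbered 11 with quantile normalization, and the sucrose and maltose genes 0. The cause of these shifts was not tested. FPKM carry no depth, so what depth limits could not be given.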

Other observations

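Genes outside the lists added to the account of carbon and redox metabolism; all were named after their values were seen. The mitochondrial aldehyde dehydrogenase gene ALD4 was higher in Spt7m in sucrose, at 1284, 1302 and 1092 FPKM in WT and 3339, 3311 and 3361 in Spt7m (1.45 ± 0.06). ZWF1, the entry enzyme of the pentose phosphate pathway, was higher by 1.22 ± 0.04, the respiratory pyruvate carrier gene MPC3 by 1.27 ± 0.07, the lactate dehydrogenase gene CYB2 by 1.2 ± 0.06, the external NADH dehydrogenase gene NDE2 by 1.6 ± 0.06 and the ADP/ATP carrier gene AAC1 by 1.35 ± 0.05. ISU1, the scaffold of iron-sulfur cluster assembly, had 928, 893 and 1015 FPKM in WT and 2879, 2814 and 2693 in Spt7m (1.56 ± 0.05), above WT in every library. SPG1 and SPG4, known from survival at high temperature in stationary phase, were higher by 1.81 ± 0.15 and 2.13 ± 0.07.

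Among genes that were lower, several handle nucleosides, vitamins and choline. RIB4, the lumazine synthase of riboflavin synthesis, had 1007, 1026 and 1076 FPKM in WT and 286, 278 and 269.6 in Spt7m (-1.90 ± 0.05). The uridine permease gene FUI1 (-1.38 ± 0.04), the adenine deaminase gene AAH1 (-1.24 ± 0.06), the biotin synthase gene BIO2 (-1.28 ± 0.11) and the choline transporter gene HNM1 (-1.49 ± 0.04) were lower. SLT2, the kinase of the cell wall integrity pathway, had 125, 123 and 124 FPKM in WT and 50.1, 54.8 and 54.0 in Spt7m (-1.21 ± 0.04), and UTR2, a chitin transglycosylase of the wall, was lower (-1.68 ± 0.04).

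A search for genes listed at under 5% of the middle library of a group in 1 of its libraries, where the other libraries held at least 20 FPKM, found 7 cases in 3 genes over the 18 libraries. SER3 had 0.304 FPKM in Spt7m sucrose replicate 1 beside 78.9 and 79.0 in the others, 0.243 in Gcn5m sucrose replicate 3 beside 74.8 and 79.6, and 0.367 in Spt7m glucose replicate 3 beside 127 and 142. YIL177C and YRF1-6, which have near-identical copies, were listed at 0 in the other 4 cases, of which YIL177C in Spt7m sucrose replicate 1 was in the strains and medium described here. The cause was not tested.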
